A study of Homo sapiens with 8 samples.

Results

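Small-subunit ribosome biogenesis factors were examined in the transcriptome of U251 cells, a human glioblastoma line, after inhibition of the arginine methyltransferase PRMT5. They comprised 56 genes, listed by symbol for their known part in the pathway at a time when earlier results of these data were known, and each symbol matched exactly 1 of the 61906 genes in the table. All 56 averaged 1 TPM or more and were tested, together with all other genes above this level (14478 in all). RNAseq was performed on 8 cultures labelled as biological replicates, all of the unmodified (WT) line. Of these, 4 received vehicle (DMSO) and 4 received the PRMT5 inhibitor LLY-283 at 100 nM, both for 24 h. Poly(A) RNA was captured, so rRNA, its precursors and the small nucleolar RNAs were not measured. Every value given for the 56 genes is a level of mRNA. All values come from 1 cell line, and the p-values measure the spread between these 8 cultures only.

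The small ribosomal subunit is built in the nucleolus around the precursor rRNA that RNA polymerase I transcribes. The UtpA and UtpB subcomplexes and the U3 small nucleolar ribonucleoprotein (snoRNP) bind the nascent transcript, and with further proteins they form the small-subunit processome, in which the rRNA is folded, modified and cleaved. RNA helicases and GTPases then take this assembly apart, and late factors escort the pre-40S particle to the cytoplasm, where the last cleavage makes the mature 18S rRNA. Growing tumor cells make large numbers of ribosomes and keep these factors at high levels. The proteins FBL and NCL carry stretches rich in glycine and arginine, of a kind that arginine methyltransferases modify, although mRNA levels do not report on this modification.

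The values deposited by the authors are TPM, transcript abundance corrected for length and expressed as a share of the library, which keeps no record of read depth. The 8 libraries summed to 1000000 or 1000001 TPM, and between 24042 and 24757 genes were above 0. In bulk RNA, fewer cells making a transcript and less transcript per cell cannot be told apart. The glial and glioblastoma line markers VIM (4018.59 to 4390.24 TPM), CD44, GFAP, NES, SOX2 and EGFR were present in every library, S100B was low (2.34 to 4.94 TPM), and OLIG2 was at or near 0 (highest value 0.03 TPM). The 10 markers of other cell types did not exceed 0.64 TPM in any library. PRMT5 mRNA was at 100.0 ± 5.03 TPM with vehicle and 100.4 ± 4.91 TPM with LLY-283 (SD, n = 4 each), and did not differ beyond this spread (log2 fold change, log2FC, 0.01 with a standard error, SE, of 0.047, adjusted p = 0.944 in limma). Of the 8 line markers, GFAP (log2FC -0.25, adjusted p = 0.00082), SOX2 (log2FC -0.27, adjusted p = 0.000349) and NES (log2FC -0.17, adjusted p = 0.000731) decreased, CD44 increased (log2FC 0.11, adjusted p = 0.0168), and VIM, EGFR and S100B were not called. These shifts are of the size of those described here for the small-subunit factors, and their part in them was not tested. Transcripts of the mitochondrial genome took 7.19% of LLY-283 replicate 4 and between 10.15% and 11% of the other 7 libraries.

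Transcripts of 28 of the small-subunit factors increased after LLY-283, those of 2 decreased, and the other 26 did not pass the test. At an adjusted p-value under 0.05 (limma on log2(TPM + 0.1), Benjamini-Hochberg over all genes tested), the increased genes made up 50.0% and the decreased genes 3.57% of the 56. Over all genes tested, 8.61% were increased and 17.6% were decreased. Among the 10439 genes whose mean level lay within the range of the 56, from 6.07 to 1586 TPM, the shares were 11.2% and 18.8%. The list was drawn up with earlier results known, so these shares describe the 56 genes and are not independent evidence of a direction. The log2FC was positive for 45 and negative for 11 of the 56 genes, whether called or not, and its median was 0.15, against -0.05 for all genes tested. The increases were small, between 7.37% and 34.4%, and none of the 56 genes changed more than 1.5-fold, a size that 3.87% of all genes tested passed at an adjusted p-value under 0.05. At an unadjusted p-value under 0.05, 36 of the 56 genes passed, as did 5588 of the 14478 genes tested (limma).

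The separation of the replicates gave a like picture. For 28 genes all LLY-283 values lay above all vehicle values, against 9.63% of all genes tested, and for 3 genes all lay below, against 19.6%. These comprised 27 of the 28 increased genes and both decreased genes. UTP11 was called increased although its groups overlapped, while HEATR1 (higher) and NOP14 (lower) had separate groups but did not pass the adjustment. In all, 26 genes were not called, 17 with a positive and 9 with a negative log2FC, from -0.23 to 0.18. At the edge of the threshold, TCOF1 (adjusted p = 0.0447) and UTP11 (adjusted p = 0.0446) were the last to pass, and WDR3 (adjusted p = 0.0561) and NOP14 (adjusted p = 0.0623) just failed.

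**Figure D1:**
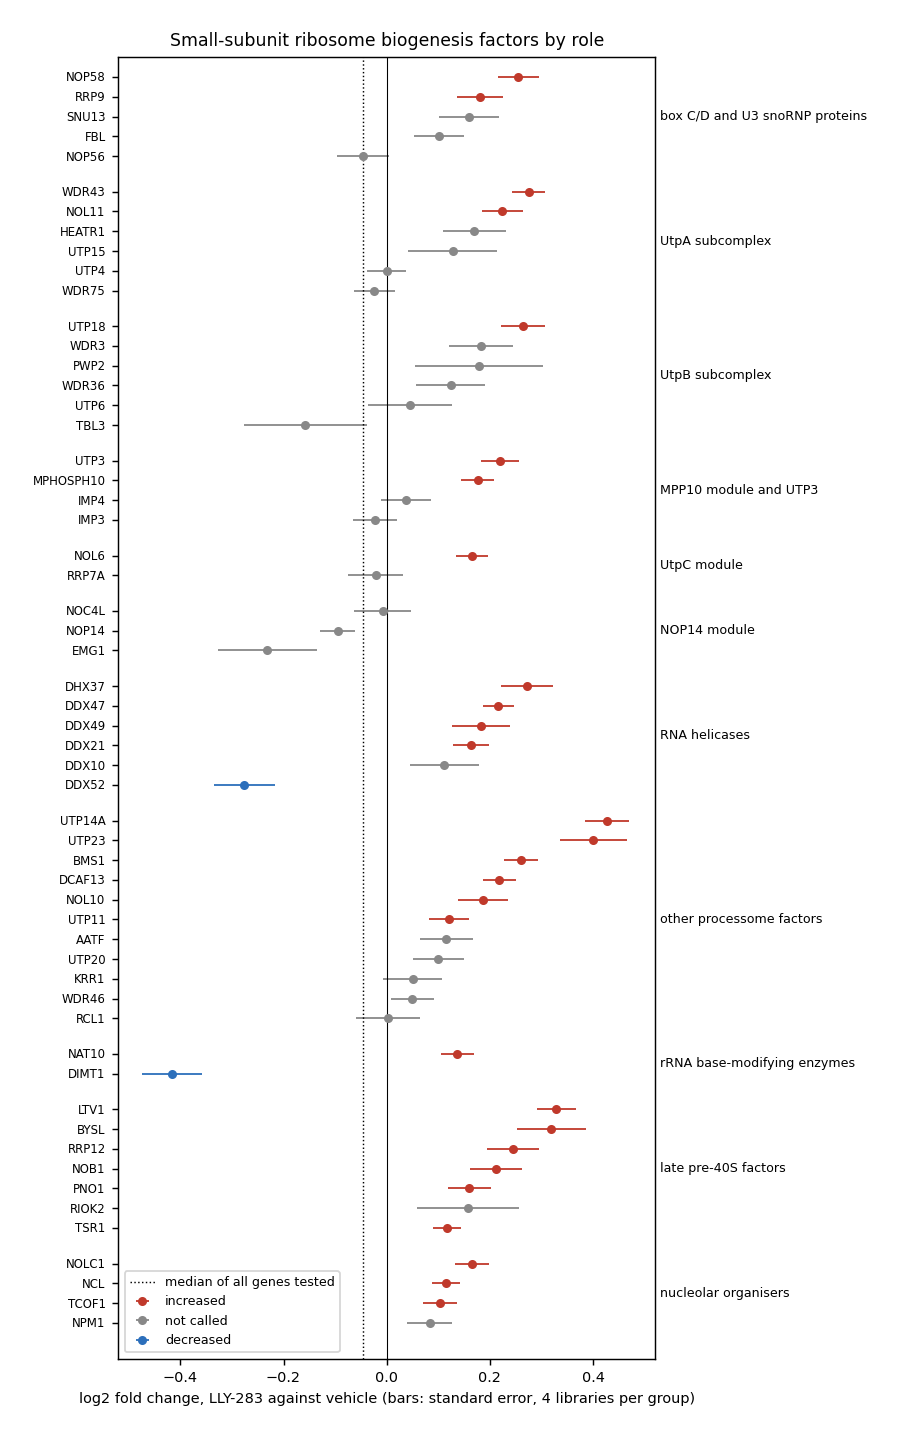
Log2FC of LLY-283 against vehicle on the log2(TPM + 0.1) scale (horizontal axis) for the 56 genes, grouped by role. Points are limma estimates with bars for the SE (4 libraries per group), coloured red where increased and blue where decreased at an adjusted p-value under 0.05, and the dotted line is the median of all genes tested (-0.05). Red points make up 6 of the 7 late pre-40S factors and 6 of the 11 other processome factors, and the 2 blue points are DDX52 and DIMT1.

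The replicates of each group were close to each other over these genes. Expressed relative to each gene's vehicle mean, the median of the 56 genes was 0.126, 0.123, 0.129 and 0.185 on the log2 scale in LLY-283 replicates 1 to 4, and lay between -0.027 and 0.019 in the vehicle libraries. Between 44 and 47 of the 56 genes were above their vehicle mean in each LLY-283 library. LLY-283 replicate 4, the library with the low mitochondrial share, was the highest of its group for 31 of the 56 genes and for 18 of the 28 increased genes. Without this library, 28 genes were increased, 27 of them also increased with all libraries, and 4 were decreased, with EMG1 and NOP14 added to DDX52 and DIMT1 (all genes tested, 10.4% increased and 18.4% decreased). With the mitochondrial genes left out and the remainder rescaled, 27 genes were increased and 3 decreased (all genes tested, 7.86% and 18.1%). Summed over the 56 genes, transcript abundance was 4974 ± 76.7 TPM with vehicle and 5364 ± 142 TPM with LLY-283 (SD, n = 4 each), and without the abundant NPM1 and NCL 2615 ± 37.2 and 2848 ± 50.7 TPM.

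**Figure D2:**
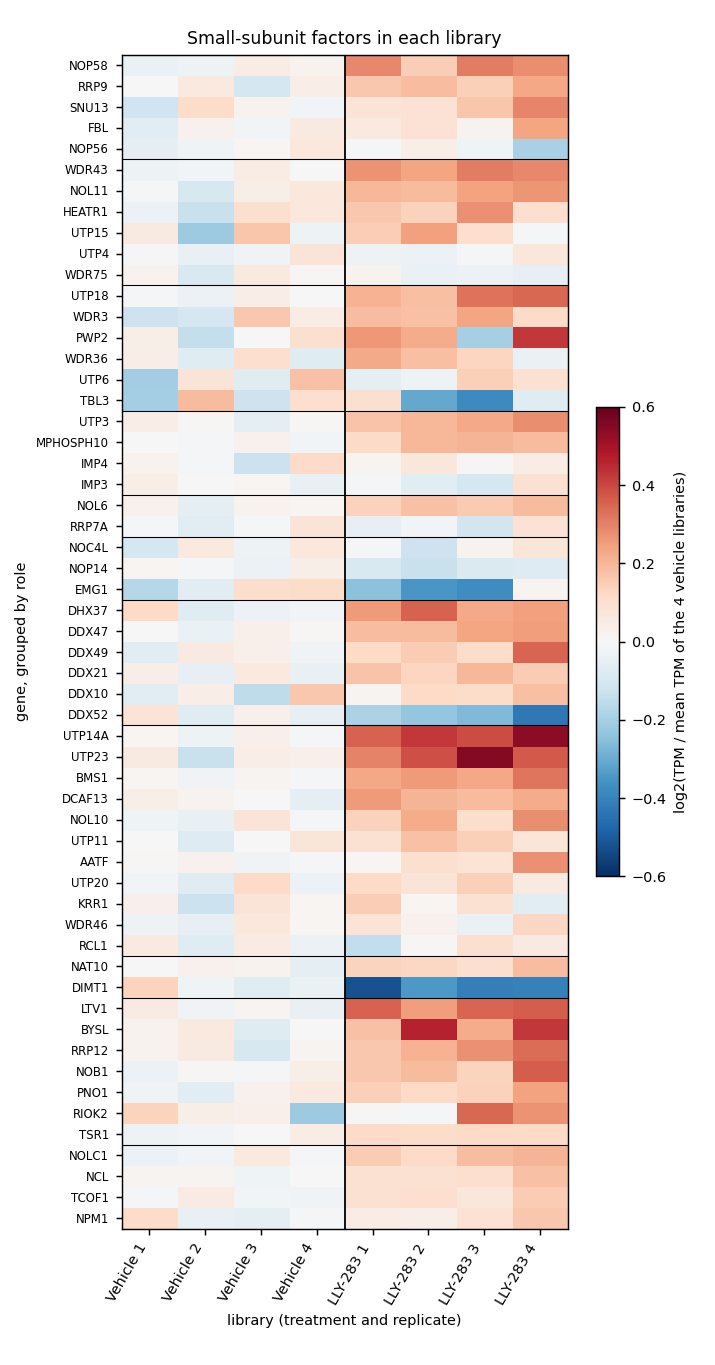
Level of each of the 56 genes (vertical axis, grouped by role) in each of the 8 libraries (horizontal axis), as log2 of TPM over the mean of the 4 vehicle libraries. Red is higher and blue is lower than the vehicle mean. The 4 LLY-283 columns are mostly red, with DIMT1 and DDX52 blue in all 4, and replicate 4 is the highest of its group for 31 genes.

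The late pre-40S factors had the largest share of increased genes among the roles, 6 of 7, with a median log2FC of 0.21. Over all genes tested 8.61% were increased, and differences between the roles were not tested. LTV1, an assembly factor that has to leave the particle before it matures, was at 36.82, 35.13, 36.10 and 34.52 TPM in vehicle replicates 1 to 4 and at 45.49, 42.38, 45.44 and 45.81 TPM in LLY-283 replicates 1 to 4. The coding genes that overlap LTV1 on its strand were not among the genes tested, so no level is given for them. All LLY-283 values lay well above all vehicle values, and the log2FC was 0.33 (SE 0.038, adjusted p = 0.000431). BYSL, the human bystin, which binds the pre-40S particle in the nucleolus, was at 25.80, 26.48, 24.18 and 25.39 TPM with vehicle and at 28.75, 35.01, 29.67 and 34.12 TPM with LLY-283. The LLY-283 values of BYSL were spread, replicates 2 and 4 lying above replicates 1 and 3, and its log2FC of 0.32 had the largest SE of the increased genes (0.067, adjusted p = 0.00815). RRP12, which takes part in export of the particle, rose by 18.5%, NOB1, the endonuclease that makes the 3′ end of 18S rRNA, by 15.8%, and PNO1, the partner of NOB1, by 11.7% (called in 17 of 19 alternatives). TSR1, which occupies the decoding face of the particle, was the most abundant of these factors and was at 65.20, 65.86, 66.74 and 68.81 TPM with vehicle and 72.26, 71.97, 72.46 and 72.33 TPM with LLY-283. Its LLY-283 values all lay between 71.97 and 72.46 TPM, and a log2FC of only 0.12 passed the test (adjusted p = 0.0138). RIOK2, a kinase of the late particle, was not called (log2FC 0.16, SE 0.098, adjusted p = 0.269).

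The largest increases among the 56 genes lay among the processome factors outside the named subcomplexes, of which 6 of 11 were increased and none decreased. UTP14A (ENSG00000156697, chromosome X, 129906121 to 129929761 of GRCh38, plus strand, 15 exons), which activates the helicase DHX37, was at 34.19, 33.25, 34.64 and 33.73 TPM in vehicle replicates 1 to 4 and at 43.42, 45.62, 44.51 and 49.28 TPM in LLY-283 replicates 1 to 4. The groups were separated by far more than the spread within either, with a log2FC of 0.43 (SE 0.043, adjusted p = 0.000218). A related intronless copy, UTP14C, was at a mean of 2.31 TPM and was not called (log2FC -0.09, adjusted p = 0.906). UTP23 (ENSG00000147679, chromosome 8, 116766505 to 116849463 of GRCh38, plus strand), a factor that acts with a box H/ACA small nucleolar RNA, was at 14.49, 12.75, 14.39 and 14.28 TPM with vehicle and at 17.19, 18.25, 20.46 and 18.04 TPM with LLY-283. Its log2FC was 0.40 (SE 0.065, adjusted p = 0.00227), and it overlaps EIF3H (log2FC 0.17, adjusted p = 0.00685) and RAD21 (log2FC 0.06, adjusted p = 0.181) on the opposite strand, from which its reads cannot be told apart if strand was not used in counting.

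BMS1, the GTPase of the processome, rose by 19.7% (adjusted p = 0.000626), but 21 pseudogene symbols of BMS1 are listed beside it with a summed level of 25.3 TPM with vehicle and 28.9 TPM with LLY-283, 70.1% and 66.7% of the level of BMS1, and RSEM divides reads between such copies. RCL1, the partner of BMS1, was not called (log2FC 0.002, adjusted p = 0.980). DCAF13 rose by 16.3% and NOL10 by 13.8% (called in 15 of 19 alternatives). AATF, which binds NOL10, was not called (log2FC 0.12, adjusted p = 0.129), but was increased in 2 of 19 alternative fits (lowest adjusted p = 0.0151). UTP11, the most abundant gene of this group, had vehicle values from 81.35 to 90.18 TPM and LLY-283 values from 90.14 to 96.97 TPM, and its log2FC of 0.12 (adjusted p = 0.0446) no longer passed in 11 of 19 alternative fits, with adjusted p-values between 0.00332 and 0.111 over all of them.

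Of the 6 RNA helicases, 4 were increased and 1 was decreased. DDX47, required for early cleavages of the precursor, was at 68.02, 66.29, 69.56 and 68.53 TPM with vehicle and at 77.55, 77.63, 80.36 and 80.99 TPM with LLY-283. Its groups were far apart, and the log2FC was 0.22 (SE 0.030, adjusted p = 0.000929). DHX37, which dismantles the processome by releasing the U3 RNA, rose by 20.7%, and DDX21, an abundant nucleolar helicase, by 11.9%. DDX49 rose by 13.5% (adjusted p = 0.0383), a call kept in 11 of 19 alternative fits, with adjusted p-values up to 0.0997. DDX52 (ENSG00000278053, chromosome 17, 37609739 to 37643446 of GRCh38, minus strand, 15 exons), the counterpart of yeast Rok1, went the other way, from 28.17, 25.36, 27.21 and 25.77 TPM with vehicle to 23.37, 22.67, 22.19 and 19.77 TPM with LLY-283. The lowest vehicle value of DDX52 lay above the highest LLY-283 value, and it fell by 17.4% (log2FC -0.28, SE 0.059, adjusted p = 0.00866). DDX10 was not called (log2FC 0.11, adjusted p = 0.250), but was increased in 1 of 19 alternative fits (adjusted p = 0.0416).

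NAT10 increased and DIMT1 decreased, both of them enzymes that modify bases of 18S rRNA. NAT10, which acetylates cytidines, was at 54.41, 55.39, 55.26 and 52.42 TPM with vehicle and at 59.62, 59.31, 58.33 and 61.89 TPM with LLY-283, a log2FC of 0.14 (SE 0.032, adjusted p = 0.0136). DIMT1 (ENSG00000086189, chromosome 5, 62347284 to 62403943 of GRCh38, minus strand, 12 exons), which dimethylates neighbouring adenosines near the 3′ end of 18S rRNA, was at 22.84, 20.45, 19.83 and 20.27 TPM with vehicle and at 14.53, 16.44, 15.69 and 15.72 TPM with LLY-283. It fell by 25.03%, the largest decrease among the 56 genes (log2FC -0.42, SE 0.058, adjusted p = 0.00099). Omitting any of the 8 libraries gave a log2FC of DIMT1 between -0.44 and -0.37. DIMT1 overlaps KIF2A on the opposite strand, whose own log2FC was -0.04 (adjusted p = 0.639).

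**Figure D3:**
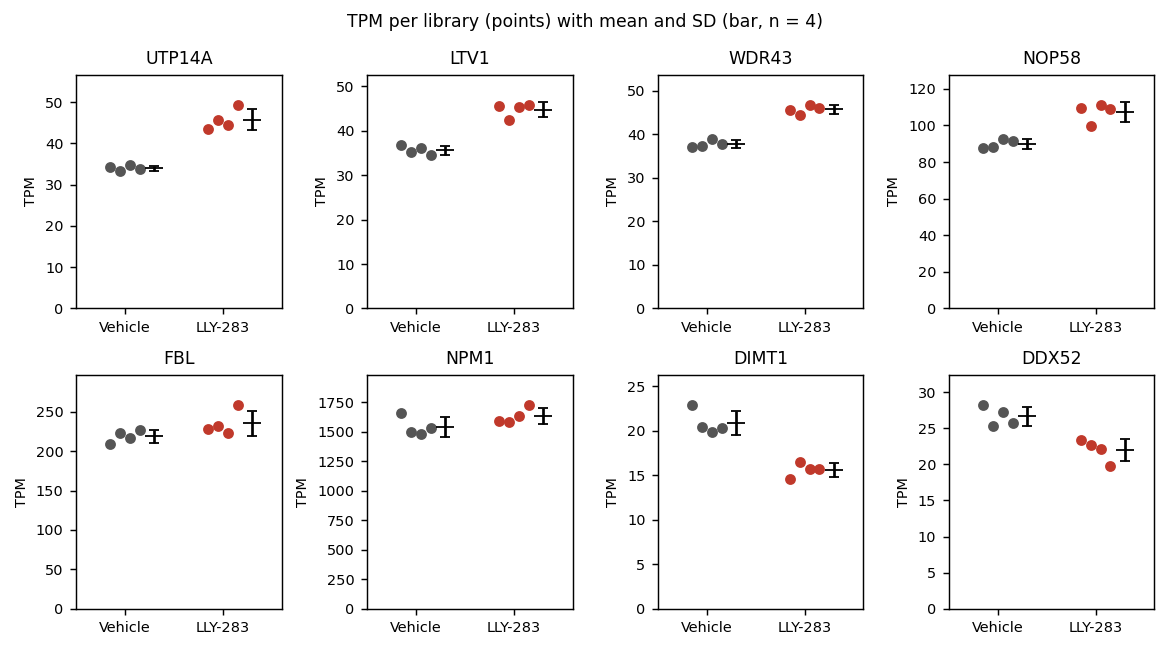
TPM (vertical axes, starting at 0) of 8 genes in each of the 4 vehicle (grey) and 4 LLY-283 (red) libraries, with the mean and SD beside the points. All LLY-283 values of UTP14A, LTV1, WDR43 and NOP58 lie above all vehicle values and those of DIMT1 and DDX52 below, whereas the groups of FBL and NPM1 overlap.

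Among the 5 proteins of the box C/D and U3 snoRNPs, which guide methylation of rRNA ribose and cleavage of the precursor, 2 were increased. NOP58 was at 87.42, 88.05, 92.85 and 91.24 TPM with vehicle and at 109.69, 99.68, 111.15 and 108.91 TPM with LLY-283, a log2FC of 0.26 (SE 0.040, adjusted p = 0.00187). RRP9, a protein of the U3 snoRNP, rose by 13.4% (adjusted p = 0.0156). FBL, the methyltransferase of these particles, was at 208.79, 223.31, 216.68 and 227.56 TPM with vehicle and at 228.26, 232.30, 222.62 and 258.26 TPM with LLY-283. Its groups overlapped and it was not called (log2FC 0.10, SE 0.048, adjusted p = 0.151); in a fit that first removed trends with GC content and length it was (log2FC 0.22, adjusted p = 0.0104). Without LLY-283 replicate 4 the log2FC of FBL was 0.06 (adjusted p = 0.230). NOP56, which pairs with NOP58 in the particle, was at 188.37, 191.69, 196.68 and 204.16 TPM with vehicle and at 194.25, 200.51, 191.95 and 170.77 TPM with LLY-283. The lowest value of NOP56 was that of LLY-283 replicate 4, without which its log2FC went from -0.05 to 0.003, and it was not called in any fit (adjusted p = 0.533). SNU13 was not called either (log2FC 0.16, adjusted p = 0.0745), but was increased in 3 of 19 alternative fits (lowest adjusted p = 0.0079).

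Within the subcomplexes that bind the precursor early, some genes were called and others were not. Differences between these genes were not tested. The median log2FC was 0.15 in both UtpA and UtpB, as for all 56 genes. In UtpA, 2 of 6 genes were increased. WDR43 was at 37.04, 37.37, 38.97 and 37.73 TPM with vehicle and at 45.52, 44.56, 46.75 and 46.12 TPM with LLY-283, a log2FC of 0.28 (SE 0.032, adjusted p = 0.000433). NOL11, the most abundant gene of this subcomplex, was at 63.68, 59.73, 65.44 and 66.78 TPM with vehicle and at 73.37, 72.82, 75.55 and 76.71 TPM with LLY-283 (log2FC 0.22, adjusted p = 0.00339). For both genes the groups were separate. WDR75 and UTP4 had log2FCs of -0.02 and -0.0004 with SEs of 0.040 and 0.038, and neither passed the test. UTP4 overlaps CHTF8 (log2FC -0.22, adjusted p = 0.0129) and DERPC (log2FC 0.24, adjusted p = 0.0162) on the opposite strand. Its reads cannot be told apart from theirs if strand was not used in counting. UTP15 was not called in any fit (log2FC 0.13, adjusted p = 0.304). HEATR1 did not pass (log2FC 0.17, adjusted p = 0.0685), but was called increased in 4 of 19 alternative fits (lowest adjusted p = 0.00898).

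In UtpB only UTP18 was increased, from 55.71, 54.62, 57.58 and 55.90 TPM with vehicle to 64.58, 63.43, 70.03 and 71.16 TPM with LLY-283 (log2FC 0.26, adjusted p = 0.00227). The other 5 genes, PWP2, TBL3, WDR3, WDR36 and UTP6, had log2FCs from -0.16 to 0.18 that did not pass, although WDR3 was called increased in 6 of 19 alternative fits, WDR36 in 4 and PWP2 in 1, with lowest adjusted p-values of 0.00535, 0.0148 and 0.0426. TBL3, with the lowest log2FC of them, was at 16.53, 21.73, 17.49 and 20.43 TPM with vehicle and at 20.34, 15.37, 14.60 and 18.12 TPM with LLY-283, so that its groups overlapped widely (adjusted p = 0.361). PWP2 had the lowest level of the 56 genes, a mean of 6.07 TPM, and the largest SE (0.124). WDR3 overlaps SPAG17 on the opposite strand (log2FC -0.67, adjusted p = 0.0041 in limma). The reads of WDR3 cannot be told apart from those of SPAG17 if strand was not used in counting.

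In the MPP10 module, which is bound to the U3 RNA, MPHOSPH10 rose by 12.97% (adjusted p = 0.00404) and UTP3, an intronless gene, from 37.20, 36.43, 34.78 and 36.40 TPM with vehicle to 40.74, 41.51, 42.43 and 43.98 TPM with LLY-283 (log2FC 0.22, adjusted p = 0.00268). IMP3 and IMP4, at means of 76.2 and 82.9 TPM, had log2FCs of -0.02 and 0.04 and did not pass. IMP3 overlaps SNX33 on the opposite strand (log2FC -0.31, adjusted p = 0.0033 in limma). The reads of IMP3 cannot be told apart from those of SNX33 if strand was not used in counting. In the UtpC module NOL6 rose from 52.33, 49.42, 52.27 and 51.83 TPM to 56.58, 58.18, 57.35 and 58.78 TPM (log2FC 0.17, adjusted p = 0.00479), and RRP7A was not called (log2FC -0.02, adjusted p = 0.799). None of the 3 genes of the NOP14 module was called. NOP14 was at 30.47, 29.96, 29.45 and 30.96 TPM with vehicle and at 28.39, 27.58, 28.47 and 28.65 TPM with LLY-283. These groups did not overlap, but the log2FC of -0.10 did not pass (adjusted p = 0.0623), with adjusted p-values between 0.0467 and 0.711 over the alternatives and a log2FC of -0.02 once trends with GC content and length were removed. EMG1, a pseudouridine methyltransferase of 18S rRNA, had a log2FC of -0.23 with an SE of 0.096 (adjusted p = 0.108). EMG1 overlaps LPCAT3 on the opposite strand (log2FC -0.31, adjusted p = 0.00918) and another coding gene on the same strand (log2FC -0.25, adjusted p = 0.0144), so its level is uncertain. NOC4L had a log2FC of -0.01 (adjusted p = 0.932), which ranged from -0.04 to 0.03 as each library was omitted.

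Of the 4 genes for abundant nucleolar proteins, 3 were increased and NPM1 was not called. NCL, nucleolin, was at 827.18, 826.15, 802.81 and 816.03 TPM with vehicle and at 871.01, 870.38, 877.22 and 924.14 TPM with LLY-283, a rise of 8.24% that the small spread between replicates made detectable (log2FC 0.11, SE 0.027, adjusted p = 0.0138). NPM1, nucleophosmin, the most abundant of the 56 genes, was at 1661.37, 1494.42, 1479.99 and 1527.03 TPM with vehicle and at 1586.90, 1580.05, 1634.35 and 1723.06 TPM with LLY-283. The highest vehicle value of NPM1 exceeded 3 of the 4 LLY-283 values, and the gene was not called (log2FC 0.08, SE 0.043, adjusted p = 0.188), but in the fit that removed trends with GC content and length it was (log2FC 0.19, adjusted p = 0.0381), though not with the replicate block added to that fit (adjusted p = 0.0793) nor in the other 17 alternatives. Its 49 listed pseudogene symbols summed to 3.67% and 3.69% of its level in the respective groups. NOLC1, which chaperones snoRNPs, was at 78.13, 79.14, 83.47 and 79.83 TPM with vehicle and at 89.03, 86.87, 91.23 and 92.29 TPM with LLY-283 (log2FC 0.16, adjusted p = 0.00589), and TCOF1, the treacle protein that links RNA polymerase I to processing, rose by 7.37% (adjusted p = 0.0447), a call kept in 9 of 19 alternative fits, with adjusted p-values up to 0.104.

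Other genes of ribosome biogenesis were compared in 4 lists that share no gene with the 56. These lists were also chosen with earlier results known, so their counts are not independent evidence of a direction. No gene of these lists was decreased at an adjusted p-value under 0.05. Over all genes tested, 8.61% were increased and 17.6% were decreased. Among 22 other small-subunit factors 10 (45.5%) were increased (median log2FC 0.11), led by PDCD11, a scaffold of the early precursor, whose mean went from 21.2 to 27.0 TPM, with SDs of 0.388 and 1.35 (log2FC 0.35, adjusted p = 0.000648). Among 49 large-subunit biogenesis factors 30 (61.2%) were increased (median log2FC 0.17), and LSG1, a GTPase of the late pre-60S particle, had the smallest p-value (log2FC 0.43, adjusted p = 5.8e-05). Among 15 genes of the RNA polymerase I machinery 7 were increased, and RRN3, the factor that brings the polymerase to the rDNA promoter, went from a mean of 29.4 to 42.9 TPM, with SDs of 1.02 and 0.536 (log2FC 0.54, adjusted p = 3.31e-05). Of the 4 box H/ACA snoRNP proteins 2 were increased, DKC1 with the smallest p-value (log2FC 0.11, adjusted p = 0.0181). The median log2FC was positive in every list, as for the 56 genes, and differences between the lists were not tested.

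**Figure D4:**
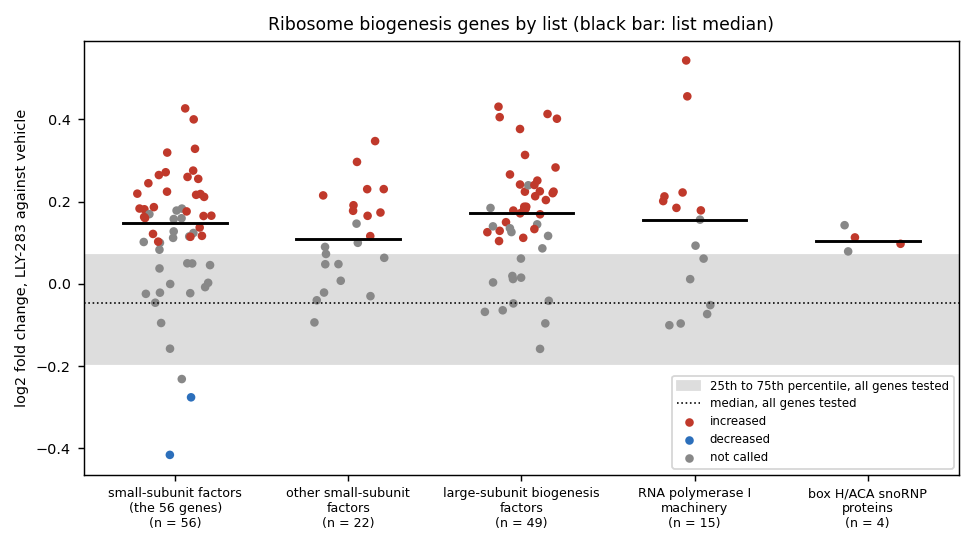
Log2FC of LLY-283 against vehicle (vertical axis, log2(TPM + 0.1) scale) for each gene of the 56 small-subunit factors and of the 4 other lists. Points are genes, red where increased and blue where decreased at an adjusted p-value under 0.05, black bars are list medians, and the grey band holds the middle of all genes tested (-0.20 to 0.07). The list medians lie between 0.11 and 0.17, above the band, and the 2 blue points are DIMT1 and DDX52.

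The 56 genes lie on 19 chromosomes. Their median transcript length (3016 nt, Ensembl canonical transcript in GENCODE release 44) was close to that of all genes tested (2915 nt), their median GC content was 46.1% against 48.2%, and their median number of exons was 14.5 against 8. Among the 28 genes of lower GC content 15 were increased (median 0.17), and among the 28 of higher GC content 13 (median 0.11). Among the 32 genes that overlap no other coding gene and have no pseudogene symbol in the table, 17 were increased and 1 was decreased. Small nucleolar RNAs, which guide the modification of rRNA, are annotated on the same strand within 6 of the genes, 18 in all: NOP56 holds 5, NOP58 4, NCL and WDR43 3 each, TSR1 2 and NOL11 1. Of these hosts 5 were increased and NOP56 was not, and their small nucleolar RNAs themselves were not measured.

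Because many of the genes moved in the same direction, the 250 bases before their start sites were searched for the E-box CACGTG, which reads the same on both strands and is bound by MYC and MAX among others. RefSeq promoter sequences (GRCh38.p14) matched 45 of the 56 genes by symbol, and 7 of these (15.6%) held the motif, against 8.06% of the promoters of genes tested and 6.35% of all promoters in the same window. Among increased genes with a sequence 3 of 19 held it (15.8%), and among genes that were not called 4 of 25 (16%), a like share. A match describes the letters only and does not show binding. The promoters of the 3 increased genes that hold the motif are shown with that of DIMT1, the decreased gene with a sequence, which does not hold it. They are written 5′ to 3′ on the strand of the gene, end directly before the RefSeq start site, and have the motif in capitals. That of UTP14A is chrX:129905914-129906163 (plus strand), that of UTP18 chr17:51260296-51260545 (plus strand), that of NAT10 chr11:34105379-34105628 (plus strand) and that of DIMT1 chr5:62403906-62404155 (minus strand).
UTP14A: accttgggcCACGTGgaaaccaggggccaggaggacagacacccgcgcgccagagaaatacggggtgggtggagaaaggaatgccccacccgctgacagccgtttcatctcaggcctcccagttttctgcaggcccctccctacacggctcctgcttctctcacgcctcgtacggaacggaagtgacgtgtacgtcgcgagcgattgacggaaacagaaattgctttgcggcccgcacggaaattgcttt
UTP18: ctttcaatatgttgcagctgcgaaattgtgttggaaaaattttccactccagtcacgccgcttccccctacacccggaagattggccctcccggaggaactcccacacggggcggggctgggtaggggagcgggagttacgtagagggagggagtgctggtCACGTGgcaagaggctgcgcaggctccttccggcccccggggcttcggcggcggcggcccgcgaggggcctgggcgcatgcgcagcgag
NAT10: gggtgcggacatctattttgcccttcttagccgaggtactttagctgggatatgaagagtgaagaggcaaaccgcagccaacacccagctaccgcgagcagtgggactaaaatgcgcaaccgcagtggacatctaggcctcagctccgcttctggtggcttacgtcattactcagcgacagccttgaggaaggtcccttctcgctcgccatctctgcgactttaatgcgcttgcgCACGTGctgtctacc
DIMT1: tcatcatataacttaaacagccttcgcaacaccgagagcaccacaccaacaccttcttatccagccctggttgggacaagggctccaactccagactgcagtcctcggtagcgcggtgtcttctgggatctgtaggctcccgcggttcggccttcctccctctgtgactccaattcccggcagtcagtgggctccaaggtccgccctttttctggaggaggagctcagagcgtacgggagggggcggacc

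Relative to the start site, the first base of the motif lies at -241 in UTP14A, at -89 in UTP18 and at -15 in NAT10. The log2FCs of these genes were 0.43, 0.26 and 0.14. The promoters of UTP4, UTP20, IMP4 and AATF, genes that were not called, are not shown. They hold the motif at -16, -10, -203 and -157, respectively. The log2FCs of UTP4, UTP20, IMP4 and AATF were -0.0004, 0.10, 0.04 and 0.12. Whether the motif bears on any change was not tested.

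Of the 28 increased genes, 23 were increased in each of 19 alternative fits. The 5 that were not were DDX49, NOL10, PNO1, TCOF1 and UTP11. DIMT1 and DDX52 were decreased in each of the 19. Of the 26 genes that were not called, 11 were increased and 2 (EMG1 and NOP14) decreased in at least 1 of these fits. Scaling the libraries by the median of ratios moved the balance over all genes tested to 13.3% increased and 12.9% decreased, with 32 of the 56 genes increased and 2 decreased.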

How the data were processed

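RNAseq was measured in 4 vehicle and 4 LLY-283 cultures of U251 cells. The authors trimmed adapters with Cutadapt 1.18, mapped reads to GRCh38 with STAR, estimated expression of GENCODE release 41 genes with RSEM and deposited a table of TPM with 2 decimals. The submitters' processing notes name STAR 2.7.0f and RSEM 1.3.1, whereas the methods name other versions. Use of strand in counting is not given in the sources used here. TPM keeps no depth, so counting error is unknown.

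Here, log2(TPM + 0.1) was compared between the groups for the 14478 genes averaging 1 TPM or more, using limma 3.58.1 in R 4.3.3 (lmFit, then eBayes with its trend option), with Benjamini-Hochberg adjustment over all of them. Fold changes on this scale understate those of low genes. Positions, lengths and GC content came from GENCODE release 44 on GRCh38. The 56 genes and the other lists were chosen with earlier results of these data known. Named with values were FBL, NOP56, NCL and NPM1, for each role the smallest p-value in each direction and the highest level, and the 5 largest calls in each direction with separate groups; others were named after their values were seen. Alternatives were other pseudocounts (0.5 and 1), filters (5 TPM, none), scalings, a fit without the trend, a replicate block, a correction for GC content and length (splines with 4 degrees of freedom), and each library left out. A planned count of arginine-glycine motifs in the proteins was not run.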

Additional observations from a re-analysis of the deposited data

Results flagged for a closer look

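In 4 of the 56 groups of 4 libraries examined (28 named genes, both treatments), the library farthest out lay further from its nearest neighbour than Dixon's 95% limit allows. Chance alone gives this in about 5% of groups. The values were those of NOL6 in vehicle replicate 2 (49.42 TPM), UTP23 in vehicle replicate 2 (12.75 TPM), LTV1 in LLY-283 replicate 2 (42.38 TPM) and NCL in LLY-283 replicate 4 (924.14 TPM). Each of these genes was increased in all 19 alternative fits, among them those without the library concerned.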

How the results depend on the processing

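Over 19 alternatives each for the 28 named genes, 498 values kept their direction and their side of the threshold. The number of increased genes lay between 25 and 37 over the alternatives that kept all libraries, the highest with the trend on GC content and length removed, where 19.4% of all genes tested were increased and 11.4% decreased. The lowest came with no filter on low values (2.96% of all genes increased), no mean-variance trend (7.16%) and the replicate block. With each library left out it lay between 23 and 28, and the number decreased between 2 and 4, the highest without LLY-283 replicate 4, while 6.13% to 10.4% of all genes were increased and 13.05% to 18.4% decreased. No gene passed 1.5-fold in any fit. The median log2 fold change of the 56 genes was 0.19 with median-of-ratios scaling and 0.21 with the trend on GC content and length removed, with or without a replicate block, and lay between 0.12 and 0.16 with each library left out. The median of all genes tested moved as well, from -0.05 to -0.0021 with median-of-ratios scaling and to 0.03 with the trend removed. Genes near 0 changed sign without passing the threshold. With quantile normalization WDR75 was at 0.0169 and RRP7A at 0.0559. With median-of-ratios scaling WDR75 was at 0.0204, IMP3 at 0.0221 and RRP7A at 0.0231. With the GC and length trend removed, with or without the block, NOP56 was at 0.0584, WDR75 at 0.0428, IMP3 at 0.10 and RRP7A at 0.0344. With each library left out, RRP7A ranged from -0.0572 to 0.0071, IMP3 from -0.0607 to 0.0051, IMP4 from -0.0052 to 0.076 and NOP56 from -0.0742 to 0.003. The cause was not tested. Deviations of same-numbered libraries had correlations from -0.0851 to 0.0320, and those of differently numbered libraries from -0.2127 to 0.2007. No pairing was seen, but so few pairs cannot exclude one, and the labels do not state any. The fit with the replicate block gave 25 increased and 2 decreased genes (all genes tested, 7.56% and 15.2%). Depth is unknown, so its part in the genes that were not called cannot be given.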
